A study of Mus musculus with 2 samples.

Results

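The 10 genes described here encode the glucose transporter Slc2a1 and 9 enzymes of glycolysis, from Hk2 at the entry of glucose to Ldha at the exit as lactate. They were chosen by name, with earlier results of these data known, and all 10 were found among the 20198 gene columns of the deposited count table. Single cells of mouse cornea were captured in droplets, and each captured RNA molecule was counted once by a unique molecular identifier (UMI) read at its 3′ end. The UW library pooled the dissociated corneas of 4 mice without a wound, and the W library those of 4 mice 24 h after the central corneal epithelium had been scraped off inside an area marked with a 2.5 mm trephine. All were male mice aged 6 to 8 weeks with no genetic change named. By the study's methods, wounding went with pentobarbital anaesthesia, procaine on the eye and ofloxacin on the wound, and no such treatment is given for UW, so these and the wound cannot be told apart. The strain is not given in the sample labels. Each condition was thus 1 library of pooled animals. The study's methods name the Souporcell algorithm for identifying the mouse of origin of cells, but no such assignment was used here. The spread between animals is thus unknown here, and no test between the conditions was made. The epithelium had been loosened with dispase II and digested with trypsin, and the rest of the cornea with collagenase A.

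Glycolysis splits glucose into pyruvate and yields ATP without oxygen. Lactate dehydrogenase then turns pyruvate into lactate, which restores the NAD needed upstream. The cornea has no blood vessels: its epithelium takes oxygen mainly from the tear film and glucose mainly from the aqueous humour, and much of that glucose leaves as lactate. After a scrape, epithelial cells at the wound edge flatten and migrate over the bare surface, and cells further back divide.

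The UW library held 16450 cells with 367166822 UMIs, and a median cell had 22014. In the W library there were 12417 cells and 289586482 UMIs, with a median of 20290. The 10 genes took 0.134% of all UMIs in UW and 0.346% in W. The libraries shared 52 cell barcodes, 0.316% of those in UW and 0.419% of those in W. The authors sorted the cells into 17 clusters, numbered 0 to 17 without 12 and deposited without names. By a list of known markers, clusters 1 and 4 were suprabasal-like, cluster 3 basal-like, cluster 5 conjunctival-like, and clusters 6 and 7 superficial-like. Cluster 8 was led by the mitotic genes Top2a and Ube2c and cluster 11 by the S phase genes Uhrf1 and Mcm3. Cluster 2 was led by Ly6g6c and Spink5, and cluster 9 by Wfdc18. These 10 epithelial clusters, all with Krt12, Krt5 and Krt14, are also given as 1 epithelial sum of 13501 cells in UW and 8507 in W. Cluster 0 was keratocyte-like, the main cell type of the stroma, and cluster 10 was led by Myoc, Penk and Fmod, which mark another group of stromal cells. It also held markers of keratocytes and of the corneal endothelium. Immune clusters were filled almost only in W: neutrophil-like cluster 13 with 710 cells, cluster 14 led by H2-Ab1 and Cd74 with 354, monocyte- and macrophage-like cluster 15 with 251, and lymphocyte-like cluster 16 with 215.

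Levels are the summed counts of a gene over the cells of a group, given per 1000000 UMIs of that group (CPM). Values in parentheses after a level are exact Poisson 95% intervals, those after a log2 ratio exact conditional binomial intervals, and those after a share of cells or counts Clopper-Pearson intervals. All of them cover counting error only. A gene is called higher or lower in W where its CPM differed at least 1.5-fold. Each count of called genes stands beside the share of all genes past the same fold, over genes that reached 10 CPM in at least 1 library and 20 UMIs over both. These were 7456 genes in the epithelial sum.

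In the epithelium, the transporter and 8 of the 9 enzymes were higher in W than in UW. In the epithelial sum, 9 of the 10 genes were at least 1.5-fold higher, beside 24.6% of all genes, and none was at least 1.5-fold lower, beside 19.0%. All 10 passed the filter on low counts, and all but Pfkp, 9 of them, did so in UW alone. Pfkp passed through W alone, so it had to be higher to be counted. The median log2 ratio of the 10 genes was 1.44, and that of all genes tested 0.05. Pfkp and Pkm had the largest ratios and Aldoa and Eno1 the smallest. The steps from Gapdh to Pgam1 and the exit through Ldha lay close together, between 1.41 and 1.55. The summed level of the 10 genes went from 1273 to 3403 CPM. The median of 1.44 was larger than that in any epithelial cluster, where medians ran from 0.61 in cluster 2 to 1.39 in cluster 3. With epithelial clusters given equal weight it was 1.06. Numbers of cells per cluster differed between the libraries, and their part in the ratios of the sum was not tested. Scaling moved all genes as well: the median of all genes in the epithelial sum shifted by -0.22 with TMM factors and by -0.23 with median-of-ratios size factors, and the median of the 10 genes was then 1.22 and 1.20. The shares of all genes then leaned the other way, 17.4% higher and 28.3% lower with TMM factors and 16.9% and 29.2% with median-of-ratios factors, and 8 of the 10 genes were higher with either. The shifts with these factors were 0.14 and 0.17 in cluster 0, -0.13 and -0.13 in cluster 1, -0.16 and -0.16 in cluster 6, -0.38 and -0.41 in cluster 7, 0.11 and 0.10 in cluster 8, 0.13 and 0.12 in cluster 9, and 0.11 and 0.12 in cluster 10.

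**Figure D1:**
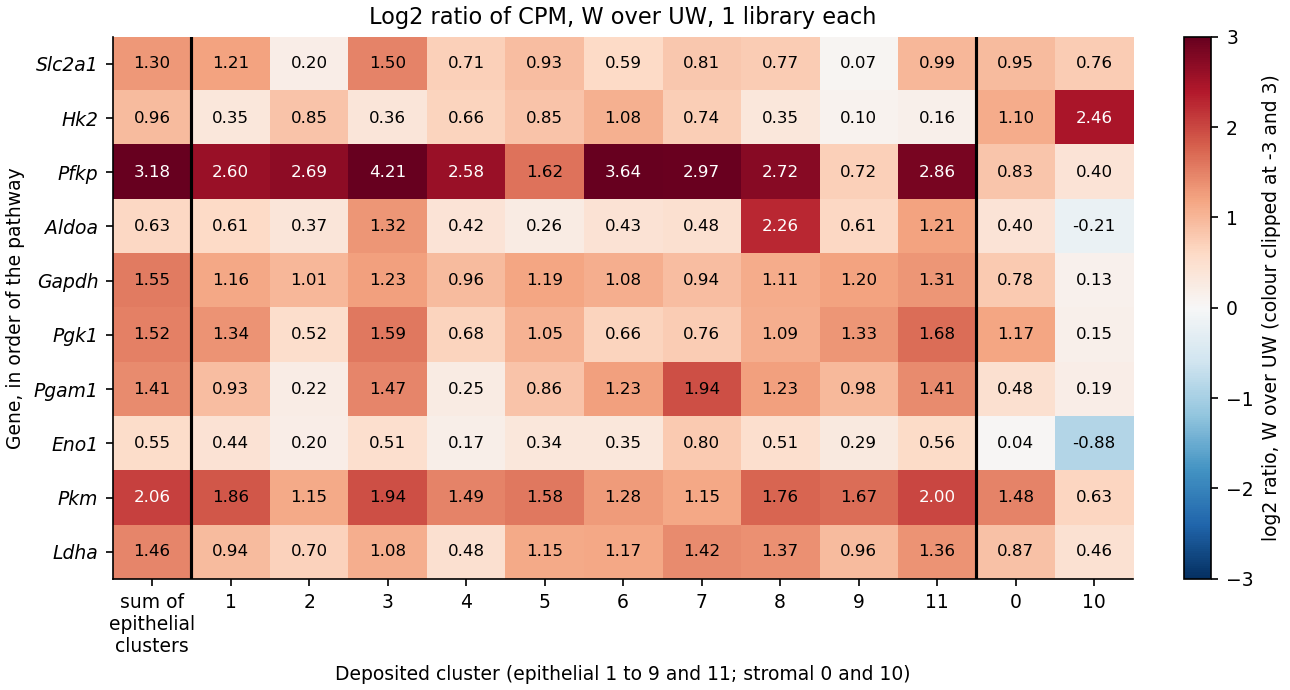
Log2 ratio of CPM, W over UW, of each gene (from top to bottom in the order of the pathway) in the epithelial sum, the 10 epithelial clusters and the stromal clusters 0 and 10, with 1 library per condition. Red is higher in W and blue lower, and colours are clipped at -3 and 3. Pkm reads 0.63 or more in every column, and cluster 10 holds the values below 0, -0.21 for Aldoa and -0.88 for Eno1.

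Entry of glucose begins with Slc2a1 (ENSMUSG00000028645.11, chr4:119108711-119137983 in GRCm38), the transporter that lets glucose pass the plasma membrane. Its level in the epithelial sum was 27.7 CPM (27.1 to 28.2) in UW and 68.2 CPM (67.2 to 69.3) in W, a log2 ratio of 1.30 (1.27 to 1.34). In UW it was 62.9 CPM in cluster 11, 59.8 in cluster 3, 58.6 in cluster 8, 51.5 in cluster 9, 43.9 in cluster 0, 40.3 in cluster 10, 28.0 in cluster 1, 23.0 in cluster 2, 22.3 in cluster 4, 14.4 in cluster 6, 13.1 in cluster 5 and 10.2 in cluster 7. Dividing, basal-like and Wfdc18-led clusters thus stood above the suprabasal-like and superficial-like ones. Intervals of neighbours overlapped through clusters 11, 3, 8 and 9, through 0 and 10, through 2 and 4, through 6 and 5. In W it was 169 CPM in cluster 3, 125 in cluster 11, 100.02 in cluster 8, 99.2 in cluster 13, 84.8 in cluster 0, 79.3 in cluster 15, 68.3 in cluster 10, 65.0 in cluster 1, 53.9 in cluster 9, 49.9 in cluster 14, 38.5 in cluster 16, 36.5 in cluster 4, 26.4 in cluster 2, 25.0 in cluster 5, 21.8 in cluster 6 and 17.9 in cluster 7. Basal-like cluster 3 was highest, and intervals of neighbours overlapped through clusters 8, 13, 0, 15, 10 and 1, through 9, 14, 16 and 4, through 2, 5, 6 and 7. Slc2a1 was at least 1.5-fold higher in W in 10 of the 12 clusters compared, and its log2 ratio over epithelial clusters ran from 0.07 in cluster 9 to 1.495 in cluster 3. The value in cluster 9, 0.07 (-0.10 to 0.23), did not differ from 0 beyond its interval. With TMM factors, 0.59 in cluster 6 became 0.43 and 0.81 in cluster 7 became 0.43, both under 1.5-fold, as they were with median-of-ratios factors. Among the 5 glucose transporters listed, Slc2a1 held 82.0% (81.3 to 82.8%) of the UW UMIs, and in W its share was 91.8% (91.4 to 92.2%). Each UMI tags the 3′ end of an RNA molecule, so these are shares of molecules.

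Hk2 (ENSMUSG00000000628.10, chr6:82725025-82774454) encodes a hexokinase, which phosphorylates glucose and so keeps it in the cell. The epithelial sum went from 33.1 CPM (32.5 to 33.8) to 64.3 CPM (63.3 to 65.3), a log2 ratio of 0.96 (0.92 to 0.99). The order of clusters differed from that of Slc2a1. In UW, Hk2 was 96.0 CPM in cluster 9, 66.0 in cluster 0, 64.4 in cluster 5, 60.8 in cluster 11, 60.0 in cluster 3, 48.2 in cluster 10, 43.2 in cluster 1, 42.0 in cluster 8, 28.6 in cluster 4, 16.3 in cluster 2, 9.88 in cluster 6 and 5.07 in cluster 7. Wfdc18-led cluster 9 was highest in UW, and intervals of neighbours overlapped through clusters 0, 5, 11 and 3, through 10, 1 and 8. In W it was 264 CPM in cluster 10, 142 in cluster 0, 116 in cluster 5, 103 in cluster 9, 76.9 in cluster 3, 75.2 in cluster 13, 67.9 in cluster 11, 67.3 in cluster 14, 57.6 in cluster 15, 55.2 in cluster 1, 53.5 in cluster 8, 46.2 in cluster 16, 45.3 in cluster 4, 29.4 in cluster 2, 20.8 in cluster 6 and 8.45 in cluster 7. Both stromal clusters then led the order, and intervals of neighbours overlapped through clusters 3, 13, 11, 14, 15, 1, 8, 16 and 4. The largest ratio of Hk2 was in Myoc-led cluster 10, 2.46 (2.28 to 2.64), where 48.2 CPM stood against 264. Over the epithelial clusters the ratio ran from 0.10 in cluster 9 to 1.08 in cluster 6. It was at least 1.5-fold in 5 of the 10, among them cluster 7, where Hk2 lay below the filter on low counts. In cluster 6 Hk2 passed that filter through W alone, with 9.88 CPM in UW, so it had to be higher to be counted. The ratio was smallest in the dividing, basal-like and Wfdc18-led clusters and in suprabasal-like cluster 1. With each epithelial cluster given equal weight the mean ratio was 0.55, under 1.5-fold. The value in cluster 9 changed sign to -0.02 with a stricter cell filter. Hk2 held 72.2% of hexokinase UMIs in UW and 76.7% in W in the epithelial sum, 64.4% and 76.9% in cluster 0, and 58.1% and 83.8% in cluster 10. Its main partner Hk1 went from 12.5 to 19.0 CPM in the epithelial sum, a log2 ratio of 0.61 (0.54 to 0.67).

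Phosphofructokinase takes the committed step of glycolysis and is built from liver, muscle and platelet subunits. Pfkp (ENSMUSG00000021196.14, chr13:6579768-6648777), the platelet subunit, was scarce in UW epithelium and showed the largest ratio of the 10 genes: 1.94 CPM (1.79 to 2.09) in UW and 17.5 CPM (17.0 to 18.1) in W, a log2 ratio of 3.18 (3.06 to 3.30). In UW it was 19.3 CPM in cluster 10, 16.4 in cluster 9, 4.16 in cluster 5, 3.52 in cluster 8, 3.46 in cluster 11, 2.71 in cluster 0, 2.14 in cluster 1, 2.01 in cluster 3, 1.25 in cluster 4, 0.791 in cluster 2, 0.413 in cluster 6 and 0.331 in cluster 7. Only Myoc-led cluster 10 and Wfdc18-led cluster 9 passed 10 CPM in UW, and intervals of neighbours overlapped through clusters 10 and 9, through 5, 8, 11, 0, 1, 3, 4, 2, 6 and 7. In W it was 109.7 CPM in cluster 16, 102 in cluster 14, 76.7 in cluster 15, 50.7 in cluster 13, 37.2 in cluster 3, 27.1 in cluster 9, 25.5 in cluster 10, 25.1 in cluster 11, 23.2 in cluster 8, 12.9 in cluster 1, 12.8 in cluster 5, 7.50 in cluster 4, 5.17 in cluster 6, 5.11 in cluster 2, 4.81 in cluster 0 and 2.59 in cluster 7. The immune clusters held the highest levels, basal-like cluster 3 came next, and intervals of neighbours overlapped through clusters 16 and 14, through 9, 10, 11 and 8, through 1 and 5, through 4, 6, 2 and 0. In cluster 3 the level went from 2.01 CPM (1.56 to 2.56) to 37.2 CPM (34.7 to 39.8), a log2 ratio of 4.21 (3.85 to 4.59). The log2 ratio of Pfkp over the epithelial clusters ran from 0.72 in cluster 9 to 4.21 in cluster 3. Pfkp passed the filter on low counts in 6 of these 10 clusters, in all but cluster 9 through W alone, and lay below it in clusters 2, 4, 6 and 7. The platelet form thus took a larger share of phosphofructokinase: of the UMIs of the 3 subunits it held 5.84% (5.41 to 6.29%) in UW, against 22.2% (21.6 to 22.8%) in W. The liver form Pfkl was higher too, from 20.2 to 56.3 CPM (1.48 (1.43 to 1.52) as log2), while the muscle form Pfkm was lower, from 10.998 to 5.02 CPM (-1.13 (-1.23 to -1.04)). In the immune clusters of W, Pfkp held 55.0% of subunit UMIs in cluster 13, 68.6% in cluster 14, 49.6% in cluster 15 and 67.9% in cluster 16.

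Aldolase cleaves the sugar bisphosphate into a pair of triose phosphates, and triose phosphate isomerase, Tpi1, interconverts them. Aldoa (chr7, minus strand; its symbol names 2 neighbouring gene models in the annotation, ENSMUSG00000030695.16 and ENSMUSG00000114515.2) went from 202 CPM (201 to 204) to 312 CPM (310.2 to 315), a log2 ratio of 0.63 (0.61 to 0.64). This call lay near the threshold: the ratio was 0.41 with TMM factors, 0.39 with median-of-ratios factors and 0.53 without clusters 8 and 11. Dividing and basal-like clusters differed most. Aldoa went from 66.6 to 318 CPM in mitotic cluster 8 (2.26 (2.16 to 2.36)), from 183 to 455 in cluster 3 (1.32 (1.27 to 1.36)) and from 169.7 to 392 in cluster 11 (1.21 (1.14 to 1.28)). In UW, cluster 8 was the lowest of the 12 clusters and cluster 10 the highest, at 284 CPM. In W the lowest was cluster 7, at 178, and the highest cluster 15, at 509. In cluster 10 the ratio was -0.21 (-0.30 to -0.11). Tpi1, not among the 10 genes, showed a larger ratio, from 86.7 CPM (85.7 to 87.7) to 290.0 CPM (288 to 292) in the epithelial sum, a log2 ratio of 1.74 (1.72 to 1.76). Aldoc, the other aldolase measured, was lower, at -0.86 (-0.92 to -0.79).

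The steps that make NADH and ATP begin with Gapdh, which oxidises triose phosphate. Gapdh (ENSMUSG00000057666.18, chr6:125161715-125166467) is often used as a reference gene for other measurements. The epithelial level went from 417 CPM (415 to 419) to 1221 CPM (1217 to 1226), a log2 ratio of 1.55 (1.54 to 1.56). In UW it was 814 CPM in cluster 8, 734 in cluster 9, 728 in cluster 11, 694 in cluster 3, 613 in cluster 0, 573 in cluster 10, 514 in cluster 1, 406 in cluster 5, 399 in cluster 4, 298 in cluster 2, 221 in cluster 6 and 162 in cluster 7, with overlap of neighbouring intervals through clusters 9 and 11, through 5 and 4. Levels in W were 1917 CPM in cluster 15, 1811 in cluster 11, 1752 in cluster 8, 1684 in cluster 9, 1625 in cluster 3, 1260.5 in cluster 14, 1145 in cluster 1, 1112 in cluster 16, 1052 in cluster 0, 988 in cluster 13, 926 in cluster 5, 774 in cluster 4, 625 in cluster 10, 598 in cluster 2, 468 in cluster 6 and 311 in cluster 7, with overlap through clusters 1, 16 and 0, through 10 and 2. Clusters with dividing, basal-like and Wfdc18-led cells were high in both libraries, and superficial-like clusters 6 and 7 low. The ratio varied little over the epithelial clusters, from 0.94 in cluster 7 to 1.31 in cluster 11, and was 0.78 (0.75 to 0.81) in cluster 0 and 0.13 (0.06 to 0.19) in cluster 10. The last value became -0.05 after subtraction of free RNA. The epithelial sum had a larger ratio than any epithelial cluster. Superficial-like clusters 6 and 7, with the lowest levels, held 1533 and 1511 cells in UW and 652 and 528 in W, while mitotic cluster 8 held 535 and 1332. With clusters given equal weight the mean Gapdh ratio was 1.12. The part of this makeup in the ratio of the sum was not tested. In cluster 7 the ratio of 0.94 was 0.56 with TMM factors, under 1.5-fold.

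Pgk1 (ENSMUSG00000062070.12, chrX:106187100-106203699), phosphoglycerate kinase, makes ATP from the product of Gapdh. It went from 73.1 CPM (72.2 to 74.0) to 209.6 CPM (208 to 211) in the epithelial sum, a log2 ratio of 1.52 (1.498 to 1.54), and over the epithelial clusters from 0.52 in cluster 2 to 1.68 in cluster 11. Its highest levels were 559 CPM in cluster 15 and 329.6 in cluster 11 of W, and its lowest 37.5 in cluster 7 of UW. Pgam1 (ENSMUSG00000011752.7, chr19:41911923-41918660) shifts the phosphate within phosphoglycerate. It went from 85.1 CPM (84.2 to 86.1) to 227 CPM (225 to 229), a log2 ratio of 1.41 (1.39 to 1.44). Its ratios were uneven over the epithelium, from 0.22 in cluster 2 to 1.94 in cluster 7. The level in cluster 7 was low in both libraries, 8.40 and 32.3 CPM, so Pgam1 passed the filter there through W alone and had to be higher. In cluster 4 its ratio of 0.25 became -0.02 with cells weighted equally. Eno1 (ENSMUSG00000063524.13, chr4:150236721-150248879), enolase, makes phosphoenolpyruvate and was the gene that differed least. The epithelial sum went from 89.4 CPM (88.4 to 90.4) to 131 CPM (129.7 to 133), a log2 ratio of 0.55 (0.53 to 0.58) that lay under 1.5-fold. It was 0.65 with totals that left out mitochondrial, ribosomal protein and haemoglobin genes. Ratios over the epithelial clusters ran from 0.17 in cluster 4 to 0.80 in cluster 7, and those in clusters 4 and 6 became -0.02 and -0.08 with cells thinned to equal depth. In cluster 10, Eno1 was lower in W, from 101 CPM (93.1 to 109.8) to 54.8 CPM (49.9 to 60.1), a log2 ratio of -0.88 (-1.07 to -0.71). It was the only call in that direction among the 10 genes and 12 clusters. The near-identical copy Eno1b was counted at 0.703 CPM in UW and 1.10 in W, so that Eno1 held 98.9% and 99.2% of enolase UMIs.

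Pyruvate kinase ends glycolysis with ATP and pyruvate. Pkm (ENSMUSG00000032294.17, chr9:59656368-59679375) gives rise to a muscle and a growth-linked splice form that share their 3′ end, so these counts cannot tell the forms apart. Pkm was at least 1.5-fold higher in W in all 12 clusters compared, as none of the other 9 genes was. In the epithelial sum it went from 146 CPM (145 to 147) to 607 CPM (604 to 610.1), a log2 ratio of 2.06 (2.04 to 2.07) or 4.16-fold. In UW it was 448 CPM in cluster 0, 371 in cluster 10, 261 in cluster 8, 242 in cluster 11, 240.2 in cluster 9, 233 in cluster 3, 185 in cluster 1, 143 in cluster 4, 136 in cluster 5, 116 in cluster 2, 78.1 in cluster 6 and 55.7 in cluster 7. Keratocyte-like cluster 0 and Myoc-led cluster 10 stood above every epithelial cluster, and intervals of neighbours overlapped through clusters 11, 9 and 3, through 4 and 5. In W it was 1248 CPM in cluster 0, 1159 in cluster 15, 972 in cluster 11, 919 in cluster 13, 896 in cluster 3, 880.4 in cluster 8, 765 in cluster 9, 681 in cluster 14, 673 in cluster 1, 608 in cluster 16, 575 in cluster 10, 406 in cluster 5, 401 in cluster 4, 256 in cluster 2, 189.6 in cluster 6 and 124 in cluster 7. Cluster 0 was highest again, and intervals of neighbours overlapped through clusters 11, 13, 3 and 8, through 14 and 1, through 16 and 10, through 5 and 4. Over the epithelial clusters the ratio ran from 1.15 in cluster 2 to 2.004 in cluster 11, all below that of the epithelial sum. It was 1.48 (1.45 to 1.51) in cluster 0 and 0.63 (0.56 to 0.71) in cluster 10, and the last became 0.54 after subtraction of free RNA, under 1.5-fold.

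Ldha (ENSMUSG00000063229.15, chr7:46841475-46855627), the main lactate dehydrogenase subunit outside heart, favours the making of lactate. It went from 198 CPM (196 to 199) to 545 CPM (542 to 548) in the epithelial sum, a log2 ratio of 1.46 (1.45 to 1.47). In UW it was 368 CPM in cluster 9, 338 in cluster 11, 329.7 in cluster 3, 307 in cluster 8, 267 in cluster 1, 216 in cluster 4, 213 in cluster 5, 204 in cluster 10, 203 in cluster 0, 143 in cluster 2, 84.4 in cluster 6 and 43.7 in cluster 7, with overlap of neighbouring intervals through clusters 11 and 3, through 4, 5, 10 and 0. Levels in W were 866 CPM in cluster 11, 794 in cluster 8, 715 in cluster 9, 697 in cluster 3, 586 in cluster 15, 511 in cluster 1, 497 in cluster 16, 472 in cluster 5, 460.0 in cluster 14, 371 in cluster 0, 301 in cluster 13, 300.0 in cluster 4, 279 in cluster 10, 232 in cluster 2, 189.5 in cluster 6 and 117 in cluster 7, with overlap through clusters 9 and 3, through 1, 16, 5 and 14, through 13 and 4. Both orders put Wfdc18-led, dividing and basal-like clusters first and superficial-like clusters last. Cluster 0, first for Pkm in both libraries, was not among the first for Ldha. The ratio ran from 0.48 in cluster 4 to 1.42 in cluster 7 over the epithelial clusters, all below that of the epithelial sum. It was 0.87 (0.82 to 0.91) in cluster 0 and 0.46 (0.35 to 0.56) in cluster 10. Ldha held 93.9% of lactate dehydrogenase UMIs in UW and 96.2% in W. The partner Ldhb was 0.75 in the epithelial sum, 1.92 in cluster 7 and -0.73 in cluster 3. Processed copies of Gapdh, Pgk1, Pgam1, Eno1 and Ldha are common in the mouse genome, and reads that match several places may be missing from the counts of these genes. How many was not measured.

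Counted cluster by cluster, some of the 10 genes were higher in W and none lower in each epithelial cluster. In basal-like cluster 3, 8 of the 10 genes were higher beside 20.7% of all genes, and none was lower beside 21.5%. In S phase cluster 11, 8 of the 10 genes were higher beside 21.3% of all genes, and none was lower beside 19.6%. In mitotic cluster 8, 8 of the 10 genes were higher beside 16.4% of all genes, and none was lower beside 21.2%. These clusters of the dividing and basal layers had medians of 1.39, 1.34 and 1.17 over the 10 genes, against -0.02, 0.01 and -0.07 over all genes. For Wfdc18-led cluster 9, 7 of the 10 genes were higher beside 18.3% of all genes, and none was lower beside 20.2%. In suprabasal-like cluster 1, 8 of the 10 genes were higher beside 17.9% of all genes, and none was lower beside 23.6%. In cluster 4, also suprabasal-like, 5 of the 9 genes that passed the filter were higher beside 13.9% of all genes, and none was lower beside 31.1%. Their medians were 0.84, 1.05 and 0.67, against -0.04, -0.07 and -0.24 over all genes.

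In Spink5-led cluster 2, 4 of the 9 genes that passed the filter were higher beside 12.6% of all genes, and none was lower beside 31.3%. This was the smallest count in the epithelium, with a median of 0.61 against -0.25 over all genes. In conjunctival-like cluster 5, 8 of the 10 genes were higher beside 15.0% of all genes, and none was lower beside 20.2%. In superficial-like cluster 6, 7 of the 9 genes that passed the filter were higher beside 19.1% of all genes, and none was lower beside 23.5%. In superficial-like cluster 7, 7 of the 8 genes that passed the filter were higher beside 26.9% of all genes, and none was lower beside 19.6%. Medians there were 0.99, 1.08 and 0.87, against -0.08, -0.10 and 0.04 over all genes. Over all 10 genes, whatever their level, the count in cluster 7 was 9, and 4 with TMM factors and with median-of-ratios factors. The shares of all genes in cluster 7 were then 15.8% higher and 37.4% lower with TMM factors and 15.3% and 38.8% with median-of-ratios factors. They leaned the other way with TMM factors in clusters 0 (14.1% and 11.1%), 8 (20.7% and 17.0%), 9 (23.4% and 14.6%) and 10 (12.2% and 8.88%) as well, toward more genes higher. In keratocyte-like cluster 0, 6 of the 9 genes that passed the filter were higher beside 9.60% of all genes, and none was lower beside 16.8%. In Myoc-led cluster 10, 3 of the 10 genes were higher beside 8.85% of all genes, and 1, Eno1, was lower beside 12.4%. Over all 10 genes the count was 5 in cluster 2, 6 in cluster 4, 8 in cluster 6 and 7 in cluster 0, since Pfkp, below the filter there, was past 1.5-fold in each. In cluster 7, Pfkp and Hk2 were the genes below the filter. All medians given are over the 10 genes. The stromal clusters had medians of 0.85 and 0.30, against -0.13 and -0.06. All 10 genes passed the filter in clusters 1, 3, 5, 8, 9, 10 and 11, 9 of them in clusters 0, 2, 4 and 6, and 8 in cluster 7. Of the 80 calls of genes higher or lower that passed the filter in the 12 clusters, 73 held with both scalings. Those that ended were Slc2a1 and Pgk1 in clusters 6 and 7, Gapdh and Eno1 in cluster 7 and Aldoa in cluster 1. In UW alone 10 passed in clusters 9 and 10, 8 in cluster 6, 7 in cluster 7 and 9 in the other 8 clusters. Pfkp in clusters 1, 3, 5, 8 and 11, Hk2 in cluster 6 and Pgam1 in cluster 7 passed through W alone. They are in the counts above and had to be higher to be counted.

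Summed over the 10 genes, every cluster compared was higher in W than in UW. Abundant genes weigh most in this sum: in the W epithelium Gapdh was 1221 CPM, Pkm 607 and Ldha 545, beside 68.2 for Slc2a1, 64.3 for Hk2 and 17.5 for Pfkp. In UW the sum was 2043 CPM in cluster 0, 1991 in cluster 9, 1989.8 in cluster 11, 1975 in cluster 8, 1918 in cluster 3, 1910.3 in cluster 10, 1584 in cluster 1, 1339 in cluster 4, 1279 in cluster 5, 1066 in cluster 2, 735 in cluster 6 and 467 in cluster 7. In W the sum was 5831 CPM in cluster 15, 5179 in cluster 11, 4777 in cluster 3, 4768 in cluster 8, 4227 in cluster 9, 3877 in cluster 0, 3780.4 in cluster 14, 3392 in cluster 1, 3386 in cluster 16, 3287 in cluster 13, 2607 in cluster 5, 2444 in cluster 10, 2252 in cluster 4, 1740.5 in cluster 2, 1375 in cluster 6 and 882 in cluster 7. Macrophage-like cluster 15 was highest of all, followed by the S phase, basal-like and mitotic clusters of W, while superficial-like clusters 7 and 6 were lowest in both libraries. Within UW, intervals of neighbours overlapped through clusters 9, 11 and 8, through 3 and 10, and within W through clusters 3 and 8, through 1, 16 and 13. Per cell of the epithelial sum, the median of the 10 genes together was 13.0 UMIs per 10000 UMIs of the cell in UW (quartiles 8.52 and 17.3) and 26.7 in W (quartiles 15.1 and 42.3), so the middle ranges of cells overlapped. In basal-like cluster 3 they did not overlap: quartiles were 15.9 and 21.9 in UW and 30.3 and 53.5 in W. In cluster 11 they were 16.7 and 22.9 in UW and 40.7 and 59.5 in W. The middle ranges did overlap in clusters 2, 4 and 10, and in no other cluster compared. Upper quartiles in UW were 12.1, 15.0 and 20.5 there, and lower quartiles in W 11.7, 13.2 and 19.5.

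**Figure D2:**
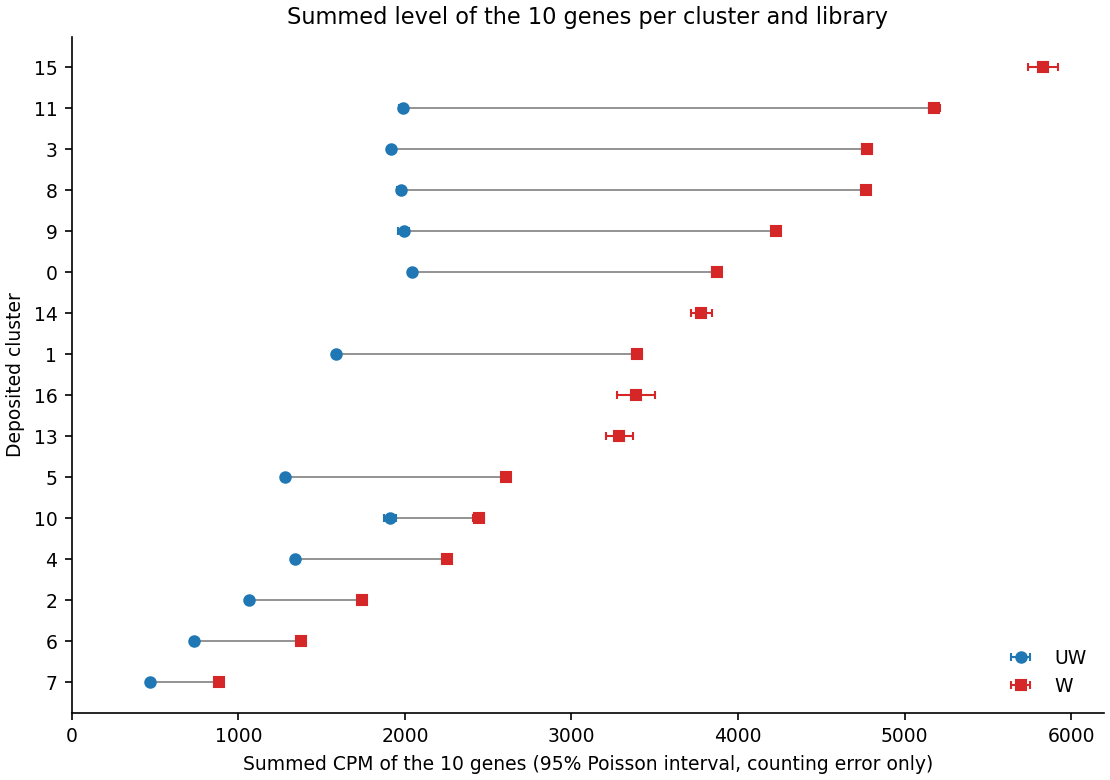
Summed CPM of the 10 genes in each deposited cluster with at least 50 cells, in UW (blue circles) and W (red squares), with Poisson 95% intervals for counting error only. Clusters 13 to 16 have a W value only. Every cluster with both values is higher in W, from 467 and 882 CPM in cluster 7 to 1989.8 and 5179 in cluster 11.

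The share of cells with at least 1 UMI was followed for the low-count genes. For Slc2a1 in the epithelial sum, UW had 40.7% (39.8 to 41.5%) and W had 59.9% (58.8 to 60.9%), at median depths of 23669 and 25553 UMIs per cell. For Hk2 it was 40.3% (39.5 to 41.1%) and 59.6% (58.5 to 60.6%). For Pfkp it was 4.25% (3.92 to 4.61%) and 30.1% (29.1 to 31.1%). No cell type here is known to lack these genes, so no cluster gives a background of free RNA for them. Superficial-like cluster 7, the lowest epithelial cluster, is given for comparison, and RNA of its own cannot be told from free RNA there. Its shares were 17.5% and 27.8% for Slc2a1, 9.07% and 14.8% for Hk2, and 0.794% and 5.30% for Pfkp, at median depths of 23636 and 21232.5 UMIs. With each cell thinned to 5000 UMIs, shares in the epithelial sum were 12.8% and 24.5% for Slc2a1, 15.0% and 24.5% for Hk2, and 1.13% and 7.81% for Pfkp. This left out 367 UW and 176 W cells below that depth. Thinned shares in cluster 7 were 4.76% and 9.55% for Slc2a1, 0.134% and 1.56% for Pfkp, and 1.81% and 3.90% for Hk2. In basal-like cluster 3, thinned shares of cells with Pfkp were 0.878% in UW and 16.1% in W. In Myoc-led cluster 10, thinned shares with Hk2 were 19.4% and 57.4%. So Hk2 was found in more of these cells at equal depth, with medians of 9288 and 12198 UMIs before thinning.

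Other features moved together with these ratios, and their part in the results was not tested. In the epithelial sum, the 5 basal markers, all detected in both libraries, summed to 931 CPM in UW and 11994 in W, and Krt14 was the most abundant of them in both. Krt14 alone went from 514 to 11192 CPM, and the other 4 together from 417 to 802. Krt14 was also higher within clusters that are not basal-like, from 136 to 17124 CPM in cluster 1 and from 48.4 to 1188 in cluster 7. The 5 superficial markers, all detected, summed to 20980.1 and 5468 CPM, led by Lypd2 in UW and Psca in W. The epithelium of W thus held less superficial marker RNA, and its larger basal sum lay mostly in Krt14. All 4 mitotic markers were detected and summed to 83.6 and 239.6 CPM, led by Top2a in UW and Ube2c in W. All 4 S phase markers were detected and summed to 30.3 and 129 CPM, led by Mcm3 in both. Neutrophil markers were found in epithelial cells as well: 4 of 5 in UW, with Retnlg at 0, and 5 of 5 in W, summing to 23.0 and 697 CPM and led by S100a9, which epithelium can also make. In cluster 0 they summed to 2.14 CPM in UW, with Csf3r and Retnlg at 0, and to 87.6 in W with 5 of 5 detected. In cluster 10 the sums were 2.10 CPM, with the same pair at 0, and 148, with Retnlg at 0. The 5 keratocyte markers, all detected and led by Dcn, summed to 74540.4 and 39177 CPM in cluster 0 and to 71500.3 and 43373 in cluster 10. The 4 markers of Myoc stromal cells, all detected and led by Igfbp7, summed to 3442 and 3866 CPM in cluster 10. So keratocyte markers were lower in W in both stromal clusters, while the markers that set cluster 10 apart were not.

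Free RNA, which leaks from broken cells into every droplet, was gauged by genes of other cell types. Dcn, a stromal gene, stood at 163 CPM in the UW epithelium and 194 in W, 4.10% and 5.52% of its level over the whole library. In cluster 0, the epithelial keratins Krt12, Krt5 and Krt14 together came to 6.64% and 7.85% of their library level, and in cluster 10 to 7.75% and 9.42%. A library profile scaled to these shares was subtracted, an alternative added after the data had been seen. In cluster 7, where levels were low, Pkm was then 50.4 CPM in UW and 89.4 in W, and the ratio of Hk2 fell to 0.19, under 1.5-fold. In cluster 0 the ratio of Pfkp fell to 0.41.

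Other genes of glucose use were taken from 8 lists with 71 genes, of which 65 were in the table. The same shares of all genes in the epithelial sum, 24.6% higher and 19.0% lower, stand beside the counts of these lists, and they change with scaling as given above. Of 4 further glucose transporters, all in the table, none reached 10 CPM in the epithelial sum. Slc2a3, the transporter of neurons and leukocytes, was 57.8 CPM (47.3 to 69.8) in neutrophil-like cluster 13. Of 21 other glycolytic enzymes and isozymes, 17 were in the table and 7 passed the filter. Hk1, Gpi1, Pfkl, Tpi1 and Ldhb were higher, Pfkm and Aldoc lower, and the median of the 7 was 0.75. By its levels given above, Pfkm passed through UW alone, so it had to be lower to be counted. With TMM factors, Hk1 was 0.39 and Ldhb 0.53, both under 1.5-fold, and the other 5 calls held. Gpi1, the isomerase between hexokinase and phosphofructokinase, went from 82.3 to 154 CPM, a log2 ratio of 0.90 (0.88 to 0.92). Eno2, the neuronal enolase, was under 1 CPM in the epithelial sum of both libraries and 13.3 and 13.7 CPM in cluster 10. Fructose 2,6-bisphosphate is the strongest activator of phosphofructokinase and is made and removed by the Pfkfb enzymes. Of a list of 5, the 4 Pfkfb genes and Tigar, 2 passed, Pfkfb3 and Pfkfb4. Pfkfb3 was lower in W, from 25.3 CPM (24.8 to 25.9) to 6.97 CPM (6.64 to 7.32), a log2 ratio of -1.86 (-1.94 to -1.79). It was at least 1.5-fold lower in all 10 epithelial clusters. Except in clusters 3 and 7, it passed the filter through UW alone there and in the sum, so it had to be lower to be counted. In cluster 10 it was higher instead, from 18.4 to 40.5 CPM (1.14 (0.82 to 1.47)).

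Pyruvate can also enter mitochondria through the carrier Mpc1 and Mpc2, and leave the cell as lactate through monocarboxylate transporters. Of 13 genes of pyruvate and lactate handling, all in the table, 8 passed the filter, none was higher and 3 were lower, with a median of -0.44. Mpc1 went from 270.3 to 137 CPM (-0.98 (-0.99 to -0.96)) and Mpc2 from 312 to 197 (-0.67 (-0.68 to -0.65)). Pdk2, a kinase that holds pyruvate dehydrogenase in check, went from 15.0 to 6.40 CPM (-1.23 (-1.31 to -1.14)). Pdk2 passed the filter through UW alone, so it had to be lower to be counted. The lactate exporter Slc16a3 lay below the filter in the epithelial sum, at 0.0841 CPM (0.0559 to 0.122) in UW and 6.29 CPM (5.97 to 6.61) in W. In basal-like cluster 3 it went from 0.153 to 27.5 CPM (7.49 (6.26 to 9.12)), and in clusters 13 and 15 it was 168 and 142 CPM. It was singled out after its values were seen. Also below the filter in the sum were Slc16a1 (2.35, from 1.12 to 5.72 CPM), Pdk3 (0.86), Pdk4 (0.94 (-0.51 to 2.46)) and Slc16a7 (-1.01). Slc16a1 was at least 1.5-fold higher in cluster 0 (0.63) and, passing the filter through W alone, in clusters 8 (0.96), 9 (2.09) and 11 (1.19). In those last clusters it had to be higher to be counted, and in cluster 10 it was 0.46. Of 6 gluconeogenesis genes 4 were in the table and 3 passed, with Pck2 higher (0.71 (0.62 to 0.79)) and none lower. Pck2 passed through W alone, with 6.35 CPM in UW and 10.4 in W, so it had to be higher to be counted, and it was 0.49 with TMM factors, under 1.5-fold. All 7 genes of the pentose phosphate pathway, which makes NADPH and ribose from glucose, passed in the epithelial sum. There none was higher, and G6pdx, its entry enzyme, was lower, from 59.3 to 34.5 CPM (-0.78 (-0.82 to -0.75)). Single clusters differed: G6pdx was under 1.5-fold in clusters 1 (-0.55), 3 (-0.41), 8 (-0.16), 9 (0.00) and 11 (-0.29). Pgd, which follows in the oxidative branch, was 0.50 in the sum and at least 1.5-fold higher in clusters 0 (0.94), 1 (1.14), 3 (1.57), 8 (1.20), 9 (1.14) and 11 (1.34). Tkt, the transketolase that is abundant enough in cornea to be called a crystallin, was 2406 CPM in UW and 1730.2 in W. Its log2 ratio was -0.48 (-0.48 to -0.47), under 1.5-fold in the sum, and it was -1.19 in cluster 3 and -1.59 in cluster 0. Rpia was -0.41 and Taldo1 -0.37 in the sum. The shifts of the sum given above take Tkt and Rpia past 1.5-fold lower with either scaling, and Taldo1 with median-of-ratios factors.

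Glycolytic genes are known targets of the hypoxia-inducible factors and of Myc. Of 7 such regulators 6 passed. Myc was higher, from 22.0 to 46.0 CPM (1.07 (1.02 to 1.11)), and Epas1 (-0.81 (-0.84 to -0.78)) and Egln3 (-1.31 (-1.33 to -1.30)) were lower. By cluster, Myc was at least 1.5-fold higher in clusters 0, 2, 4, 6, 7 and 10, where it passed the filter through W alone. Its ratio was 0.52 in cluster 1, 0.22 in cluster 3, 0.43 in cluster 5, -0.14 in cluster 8, -0.15 in cluster 11 and -0.78 in cluster 9. The RNA of Hif1a, whose product is controlled mainly through its stability, was 69.3 and 73.6 CPM (0.09 (0.06 to 0.12)). Within the epithelial clusters its ratio was above 0 in clusters 6 (0.24) and 7 (0.45) and below 0 in the other 8, down to -0.51 in cluster 8. The interval included 0 in clusters 3 (-0.09 to 0.05) and 5 (-0.10 to 0.09). With either scaling, the shift of the epithelial sum given above turns the ratio of Hif1a there below 0. Of 8 other hypoxia response genes 5 passed, 3 of them in UW alone, and 4 were higher: Vegfa (1.07), P4ha1 (1.60), Adm (0.90) and Ddit4 (1.97). Ndrg1 was lower in the sum (-1.16) and higher in basal-like cluster 3 (2.91). In cluster 3, 7 of the 8 passed and 6 were at least 1.5-fold higher, beside 20.7% of all genes there. Only 4 passed in UW alone, so the others had to differ to be counted, with Bnip3 from 0.946 to 25.6 CPM and Ddit4 from 9.98 to 89.7. Counts were smaller in the other epithelial clusters, beside the shares of all genes given above for each: 5 of 7 were higher in cluster 11, 4 of 4 in cluster 4, 3 of 4 in clusters 1, 5 and 6, 2 of 6 in cluster 8, 1 of 3 in cluster 2, and none of 2 in cluster 7 or of 5 in cluster 9. In clusters 2, 6, 7 and 9, 1 was lower. In UW alone 4 passed in cluster 11, 2 in clusters 1, 4 and 5, 3 in cluster 6 and 5 in cluster 8. The rest of the genes counted in these clusters passed through W alone, so they had to be higher there to be counted. Protein levels and oxygen were not measured.

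**Figure D3:**
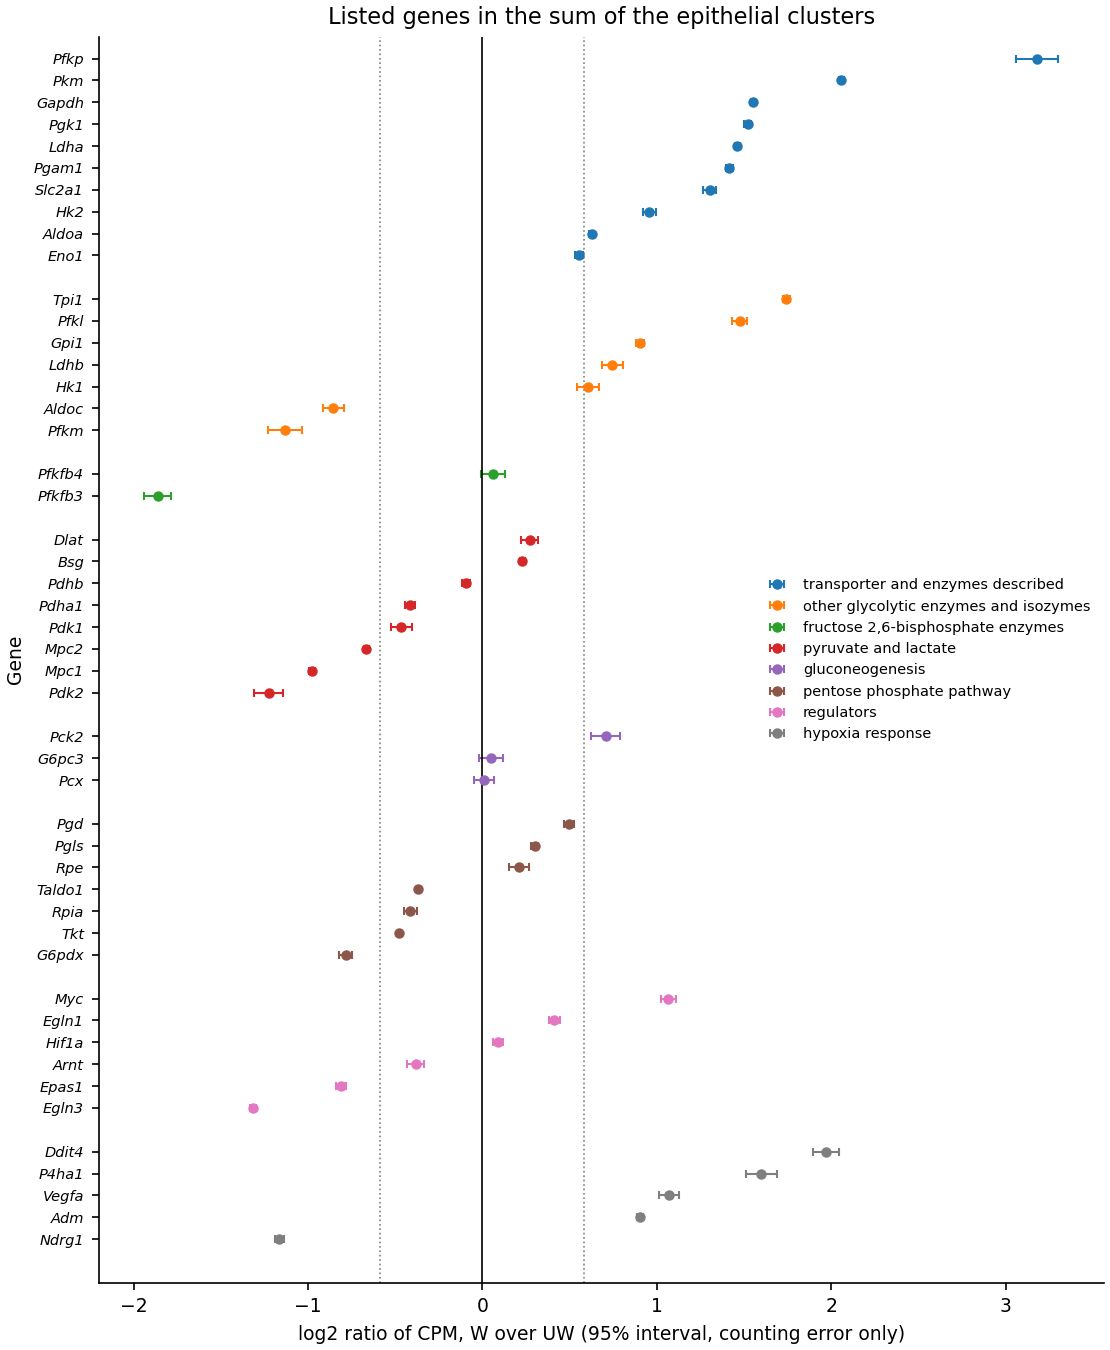
Log2 ratio of CPM, W over UW, in the epithelial sum for the 10 genes and for every gene of the other lists that passed the filter (points, coloured by list), with 95% intervals for counting error only. Dotted lines mark 1.5-fold in each direction. The 10 genes lie between 0.55 and 3.18, while the genes of pyruvate and lactate handling that passed lie between -1.23 and 0.27. Genes of that list below the filter, from -1.01 for Slc16a7 to 6.22 for Slc16a3, are not drawn.

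Across the 28 groups of at least 50 cells, the 10 genes varied together to different degrees. Over their 45 pairs the median Pearson r of log2(CPM + 1) was 0.781, with the highest between Gapdh and Ldha (0.965) and the lowest between Hk2 and Aldoa (0.343). The groups share 2 libraries and differ in depth and cell type, so these values are descriptions. Among 2676 other genes with a mean of at least 50 CPM, the patterns most like the mean of the 10 genes were those of Mrpl54 (0.975), Bola2 (0.970), Polr2k (0.963), Sf3b5 (0.962) and Rbm8a (0.954). Mrpl54 ran from 12.3 CPM in cluster 7 of UW to 159 in cluster 15 of W. The most opposite patterns were those of Tcf20 (-0.940), Fcho2 (-0.931), Chp1 (-0.927), Ube2h (-0.921) and Midn (-0.908). Tcf20 was highest in cluster 7 of UW, at 303 CPM, and lowest in cluster 15 of W, at 12.9.

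The promoters of the 10 genes were read for the core letters bound by hypoxia-inducible factors. The 250 bases before each start listed in the RefSeq promoter table, build GRCm38.p6, were used, and all 10 genes were matched there, with 16 promoters. These starts are not always the outer ends of the gene spans given above: the promoters of Gapdh and Ldha lie inside those spans, as do some of those of Eno1 and Pkm. ACGTG on either strand was in 7 of the 10 genes, Slc2a1, Hk2, Aldoa, Pgk1, Pgam1, Pkm and Ldha, and in 8 of their 16 promoters, beside 16.6% of all 32851 promoters and 18.5% of 27025 genes. GCGTG, the other form of the core, was in 6 genes, Slc2a1, Pfkp, Gapdh, Pgam1, Eno1 and Ldha, and in 8 of the 16 promoters, beside 28.2% of all promoters and 30.9% of genes. CACGTG, the letters bound by Myc, contains ACGTG on both strands and was in Ldha alone, in 1 of its promoters, beside 6.02% of all promoters and 6.86% of genes. A match describes letters only and shows no binding. Shown are 4 promoters that hold ACGTG, from the entry step, the middle of the pathway and the exit, written 5′ to 3′ on the gene's strand with ACGTG and its reverse complement CACGT in capitals. These are Hk2 at chr6:82774455-82774704 (minus strand), Pgk1 at chrX:106186850-106187099 (plus strand), Pgam1 at chr19:41911621-41911870 (plus strand) and Ldha at chr7:46845554-46845803 (plus strand). Ldha holds 5 such positions, Hk2 and Pgk1 2 each and Pgam1 1.

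Hk2: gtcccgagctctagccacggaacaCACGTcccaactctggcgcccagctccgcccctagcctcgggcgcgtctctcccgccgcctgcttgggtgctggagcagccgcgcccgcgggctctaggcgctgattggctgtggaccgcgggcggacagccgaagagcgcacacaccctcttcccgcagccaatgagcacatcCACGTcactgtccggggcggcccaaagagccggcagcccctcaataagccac
Pgk1: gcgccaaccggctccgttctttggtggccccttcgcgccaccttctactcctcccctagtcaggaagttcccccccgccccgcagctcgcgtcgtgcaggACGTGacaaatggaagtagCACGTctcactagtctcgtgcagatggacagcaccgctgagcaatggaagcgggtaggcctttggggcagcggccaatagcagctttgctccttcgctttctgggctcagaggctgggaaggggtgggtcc
Pgam1: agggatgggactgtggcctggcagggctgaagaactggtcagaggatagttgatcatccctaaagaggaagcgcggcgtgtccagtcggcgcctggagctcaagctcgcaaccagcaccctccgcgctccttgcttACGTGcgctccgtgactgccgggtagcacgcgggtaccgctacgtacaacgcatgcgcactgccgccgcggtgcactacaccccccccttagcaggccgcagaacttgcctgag
Ldha: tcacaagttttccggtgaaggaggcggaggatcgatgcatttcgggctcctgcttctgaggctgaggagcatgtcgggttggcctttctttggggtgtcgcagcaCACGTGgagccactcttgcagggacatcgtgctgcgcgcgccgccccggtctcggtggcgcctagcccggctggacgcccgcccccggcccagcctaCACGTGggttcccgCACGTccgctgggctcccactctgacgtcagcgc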

How the data were processed

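The deposited values are raw UMI counts per gene and cell. Before deposit the authors had counted UMIs with Cell Ranger 3.1.0, filtered the cells, taken out the doublets of their final call and, by their methods, cells with a dissociation signature, and numbered the clusters. How many cells these steps took out cannot be told from the deposited table. That table holds fewer cells of each library than the paper gives after doublet removal and quality control, for a reason that is not known. Another deposited doublet call still named 305 UW and 164 W cells. From there, counts were summed over the cells of each cluster and library and divided by all UMIs of that group. The 10 genes and the other lists were chosen with earlier results of these data known. Named were all 10 genes, those of the other lists past 1.5-fold in the epithelial sum, isozyme partners, and the 5 genes at each end of Pearson r. Slc16a3, Slc16a1, Slc16a7, Pdk3, Pdk4, Bnip3, Tkt, Pgd, Hif1a, Pfkfb4 and Eno1b were named outside this rule, after their values were seen. Alternatives tried were TMM factors (edgeR 4.0.16), median-of-ratios size factors (DESeq2 1.42.0), totals without mitochondrial, ribosomal protein and haemoglobin genes, no CPM filter, 2-fold calls, a stricter cell filter (1000 or more genes, mitochondrial UMIs no more than 5%), leaving out those doublets, equally weighted cells or clusters, thinned cells (5000 UMIs, or 2000 in immune clusters), no dividing clusters, and Eno1 summed with Eno1b. Subtraction of free RNA, and both scalings for genes of the other lists, were added after the data had been seen. Gene positions came from GENCODE M21 by symbol, while genome build names differ between the sample labels and the methods. Python 3.11.15, numpy 2.4.6, scipy 1.17.1, pandas 2.3.3, matplotlib 3.10.9 and R 4.3.3 were used, and the steps were tested on simulated data.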

Additional observations from a re-analysis of the deposited data

Results flagged for a closer look

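Taken were the 10 genes and those of the other lists, in clusters where they passed the filter with intervals that left out 0. Of these, 8 had a level in W at least 1.5-fold higher in some clusters and at least 1.5-fold lower in others. These differences between clusters were not tested, since each condition was 1 library, and the highest and lowest such log2 ratios are given here. Of the 10 genes this held for Eno1 alone, which was -0.88 in cluster 10 and 0.80 in cluster 7. With TMM and median-of-ratios factors the value in cluster 7 was 0.42 and 0.39, under 1.5-fold. Among isozymes, Ldhb was -0.73 in cluster 3 and 1.92 in cluster 7. Both Pfkfb enzymes that passed the filter in the epithelial sum were among these genes: Pfkfb3 was -3.38 in cluster 1 and 1.14 in cluster 10, and Pfkfb4 was -1.04 in cluster 0 and 0.93 in cluster 7. For Pfkfb4 the value in cluster 7 was 0.55 and 0.52 with these factors, under 1.5-fold. Pck2, of gluconeogenesis, was -0.66 in cluster 8 and 0.84 in cluster 0, and with the same factors its value in cluster 8 was -0.55 and -0.56, under 1.5-fold. The regulator Myc was -0.78 in cluster 9 and 3.64 in cluster 6. The filter asks for 10 CPM in 1 library only, and Myc passed through W alone in each of the 6 clusters where it was called higher, with 1.52 CPM in UW in cluster 6, so there it had to be higher to be counted. Likewise Ldhb in cluster 7 passed through W alone, and Pfkfb3 in cluster 1 and Pfkfb4 in cluster 0 through UW alone. Of the hypoxia response genes, Vegfa was -0.91 in cluster 9 and 2.53 in cluster 3, and Ndrg1 was -2.33 in cluster 7 and 2.91 in cluster 3. The values printed for the other 5 genes stayed past 1.5-fold with both scalings.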

How the results depend on the processing

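No value past 1.5-fold changed sign under any alternative run for the 10 genes. Of 1060 log2 ratios of single genes recomputed, 672 stayed within the interval of the value in the report, 388 moved beyond it, and 1051 had the same sign. Those whose sign changed were under 1.5-fold in the report. All 106 recomputed medians were above 0, and 37 had moved. In the epithelial sum the median of 1.44 became 1.22 with TMM factors, 1.20 with median-of-ratios size factors, 1.53 with totals without mitochondrial, ribosomal protein and haemoglobin genes, 1.48 with the stricter cell filter, 1.13 with equally weighted cells, 1.18 with thinned cells, 1.16 without clusters 8 and 11, and 1.06 as the mean over epithelial clusters. In cluster 0 the median of 0.85 became 0.99 with TMM factors, 1.02 with median-of-ratios factors and 0.78 with free RNA subtracted, which was chosen after seeing the data. In cluster 10 the median of 0.30 became 0.46 with the stricter cell filter. At 2-fold in place of 1.5-fold, the genes called higher, counted over all 10 whatever their level, fell in the epithelial sum from 9 to 7 and in each epithelial cluster except cluster 3, by most in clusters 7 (from 9 to 4), 4 (from 6 to 2) and 9 (from 7 to 3). They went from 7 to 3 in cluster 0 and from 3 to 1 in cluster 10, and those called lower in cluster 10 from 1 to 0; a larger threshold can only lower a count. With at least 1 UMI in each library as the only filter, the shares of all genes in the epithelial sum were 35.1% higher and 17.8% lower, in place of 24.6% and 19.0%. For the other changes the cause was not tested. Counts of genes called higher stayed within 1.5 times in 109 of 119 recomputations, and counts called lower in 118 of 119. In the order of summed levels, 11 of 28 groups kept their place with the altered totals, with shifts of up to 4 places, and 15 of 28 with thinned cells, with shifts of up to 2. The stricter filter left out 1038 UW and 1157 W cells, the doublet filter 305 and 164, and thinning 444 and 393. Pooled animals in 1 library per condition limit all comparisons: library and wound cannot be told apart, nor can single mice without an assignment of cells to them. Depth limits Pfkp and Slc16a3 in UW epithelium, and the immune clusters had too few UW cells to compare. RNA counts give neither enzyme activity nor the flow of glucose.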

Other observations

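Cluster 17 held 29 cells of W and none of UW, and was led by Cxcl9, Saa3 and Gpha2. The summed level of the 10 genes there was 3801 CPM (3637 to 3970.0), with Pkm at 1133 CPM, Gapdh at 1056 and Pfkp at 18.8. Of UW cells, 1 was in cluster 13, 7 in cluster 14 and 7 in cluster 16.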
